A study of Mus musculus with 6 samples.

Results

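The nuclear factor I (NFI) family is a family of DNA-binding transcription factors with the members Nfia, Nfib, Nfic and Nfix. Its members were taken from the array by gene symbol, leaving out control spots, which gave 4 of 24082 gene symbols and 12 of 55681 probes, with 2 to 5 probes per gene. The array was a 1-color Agilent mouse array, hybridized with labeled RNA amplified from magnetically sorted wild-type mouse cells of neonatal cerebellum. The A+/G+ fraction was enriched for cells positive for ACSA-2 and for GLAST. The A-/G+ fraction was enriched for cells negative for ACSA-2 and positive for GLAST. Each had 3 biological replicates, with 50000 cells per sample. The study reports enriched rather than pure fractions, and it counts the rare ACSA-2 positive cells without GLAST with A+/G+. ACSA-2 is an astrocyte cell surface antigen carried by the protein of Atp1b2, and GLAST is the glutamate transporter encoded by Slc1a3. The labels give CD1 mice at postnatal days 1 to 3 for all samples, whereas the study's methods give a C57BL/6 background for its wild-type mice and an earlier neonatal age for the arrays. Tissue of either sex was used. Atp1b2 itself had a log2 signal of 12.82 ± 0.14 in the 3 A+/G+ samples and 10.66 ± 0.31 (SD) in the 3 A-/G+ samples (limma, Benjamini-Hochberg adjusted p = 0.00725). For the A-/G+ sort, cells with markers of neurons, leukocytes or red blood cells and ACSA-2 positive cells were removed before GLAST selection. The A+/G+ cells were selected with anti-ACSA-2 beads without a GLAST step, so the fractions also differ in how they were purified.

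NFI proteins bind DNA as dimers, and in the embryonic central nervous system Nfia and Nfib are known for turning neural progenitors towards the glial fate. Nfia acts there together with Sox9, and NFI factors bind and activate genes of astrocytes such as Gfap. In the postnatal cerebellum NFI proteins are also known from granule neurons, where they regulate genes of migration, axon growth and synapses.

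All 4 members were expressed in both fractions, since each of the 12 probes was well above background on all 6 arrays and none was saturated. After quantile normalization, which gives all arrays the same distribution of signals, the mean of every NFI probe was higher in A-/G+ than in A+/G+, by 0.37 to 0.97 on the log2 scale. An adjusted p of at most 0.05 was reached by 4 of the 12 probes (limma with Benjamini-Hochberg adjustment over all 55681 probes), of which Nfib had 2, Nfic 1, Nfix 1 and Nfia none. Of all probes 4.64% were past this limit with the higher mean in A-/G+, and among the 17957 probes well above background on all arrays 11.9% were. None of the 12 probes also had medians at least 4-fold apart, which together with the adjusted p was the study's call and held for 1.93% of all probes in either direction.

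The direction of these differences rests on the scaling of the arrays. The arrays of A-/G+ were dimmer as a whole, with a 75th percentile of intensity of 56.6 to 251 against 332 to 334 on the arrays of A+/G+. They also had fewer probes well above background, 18340 to 24730 against 26476 to 26655. Without any normalization between arrays the means of all 12 NFI probes were higher in A+/G+, by a median of 0.93 on the log2 scale, while the probes well above background on all arrays were higher there by a median of 1.35. Aligning the arrays at their 75th percentile instead kept all 12 means higher in A-/G+, but no NFI probe was then past the limit. All values below are therefore relative to the other transcripts of the same array. Each fraction was hybridized on its own slide, A+/G+ on slide 1 and A-/G+ on slide 2, so slide, fraction and purification cannot be told apart. In sorted samples, fewer cells of a type and less RNA per cell cannot be told apart either.

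**Figure D1:**
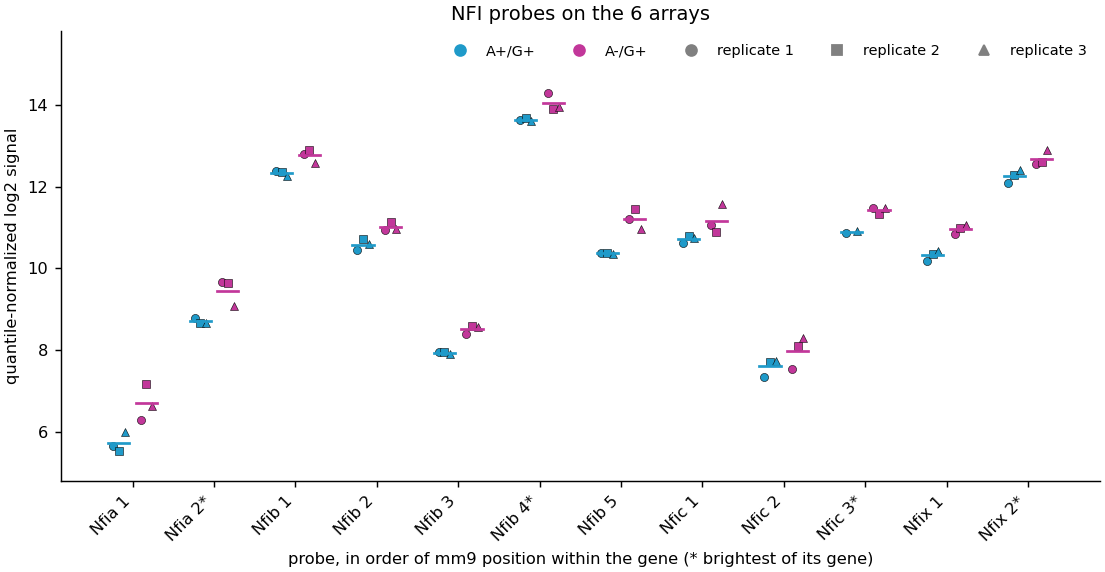
Quantile-normalized log2 signal (vertical axis) of the 12 NFI probes (horizontal axis, numbered within each gene by mm9 position) on the 3 A+/G+ arrays (blue) and the 3 A-/G+ arrays (magenta); symbols give the replicate and short lines the mean. The fractions do not overlap for 11 of the 12 probes and overlap for Nfic probe 2.

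The probes of a gene are numbered here by their position on mm9, and each covers 60 bases. Differences are the mean of A+/G+ minus that of A-/G+, so a negative value means a higher signal in A-/G+. Levels are not compared between probes, because probes differ in how strongly they bind their target. The sequences of 3 probes that lie in the known coding sequence of Nfia, Nfib and Nfix are shown, each as the array's design gives it, 5′ to 3′ along the transcript. They show which stretch of each message was read. Of the other 9 probes, Nfib probes 2 and 4 hold a stop codon in every forward reading frame, so neither lies wholly in coding sequence. Whether the rest lie in coding or untranslated sequence was not determined here.
Nfia probe 1, + strand, chr4:97680930-97680989: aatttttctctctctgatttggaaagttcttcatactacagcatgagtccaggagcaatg
Nfib probe 5, - strand, chr4:82144224-82144283: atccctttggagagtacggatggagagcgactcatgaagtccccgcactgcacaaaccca
Nfix probe 2, - strand, chr8:87250416-87250475: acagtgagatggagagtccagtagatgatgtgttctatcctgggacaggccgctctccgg

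Nfia, the member best known for the start of gliogenesis in the spinal cord, had the largest difference of the family, at probe 1, and the largest among the members' brightest probes, but neither of its probes was past the adjusted p limit. The log2 signal of probe 2, its brightest (chr4:97781622-97781681), was 8.79, 8.66 and 8.68 in replicates 1, 2 and 3 of A+/G+, and 9.66, 9.63 and 9.08 in those of A-/G+, an order kept for all probes below. Every A-/G+ value lay above the A+/G+ values, with replicate 3 of A-/G+ closest to them. The difference was -0.75 (standard error 0.18, adjusted p = 0.0730 from limma), with medians 1.94-fold apart. Probe 1, whose sequence is given above, had 5.67, 5.53 and 6.01 in A+/G+ and 6.30, 7.19 and 6.63 in A-/G+. Here too the fractions did not overlap, and replicate 2 of A-/G+ was the highest. The difference was -0.97 (standard error 0.27, adjusted p = 0.103 from limma). Leaving out replicate 3 of A-/G+ gave a difference of -0.94 for probe 2 with an adjusted p of 0.00816. With all 6 arrays, this probe was past the limit after normexp background correction (adjusted p = 0.0374 from limma) or with dim probes left out (adjusted p = 0.0357).

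Nfib, which in mice is needed for the development of the lung and of the forebrain glia, had 5 probes, and the fractions did not overlap for any of them. Probe 5 (sequence above), the one farthest from the 3′ end of the gene, had 10.38, 10.38 and 10.35 in A+/G+ and 11.21, 11.46 and 10.96 in A-/G+. The A+/G+ arrays lay close together and all below those of A-/G+, and the difference was -0.84 (standard error 0.14, adjusted p = 0.0299 from limma), with medians 1.78-fold apart. Probe 3 (chr4:81938238-81938297) was the other one past the limit, with 7.96, 7.96 and 7.92 in A+/G+ and 8.40, 8.60 and 8.58 in A-/G+. It had the lowest adjusted p of the family, 0.0166, at a difference of -0.58 (standard error 0.07, limma).

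The remaining probes of Nfib had smaller differences that were not past the limit. Probe 4, the brightest of the gene (chr4:81941988-81942047), had 13.63, 13.67 and 13.60 in A+/G+ and 14.30, 13.90 and 13.95 in A-/G+. The difference was -0.42 (standard error 0.12, adjusted p = 0.115 from limma), and replicate 1 of A-/G+ was the farthest from A+/G+. Probe 1 (chr4:81936100-81936159) ranged from 12.27 to 12.38 in A+/G+ and from 12.59 to 12.90 in A-/G+, with a difference of -0.43 and an adjusted p of 0.0647. Probe 2 (chr4:81936575-81936634) ranged from 10.44 to 10.71 in A+/G+ and from 10.95 to 11.14 in A-/G+, with a difference of -0.44 and an adjusted p of 0.0630.

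Nfic, the member known for its part in tooth root formation, was the only one past the limit at its brightest probe, and that result rests on 5 arrays. Probe 3 (chr10:80863698-80863757) had 10.88 and 10.91 in replicates 1 and 3 of A+/G+, and 11.49, 11.34 and 11.47 in A-/G+. The spot of A+/G+ replicate 2 was marked as an outlier by the scanner software and left out, with an intensity of 15770 against 3046 and 3173 on the other A+/G+ arrays. The difference over the remaining arrays was -0.54 (standard error 0.08, adjusted p = 0.0338 from limma), with medians 1.49-fold apart. With outlier spots kept, the difference turned to 0.23 with an adjusted p of 0.861. Without any single one of the 6 arrays, this probe was no longer past the limit, with adjusted p between 0.0537 and 0.158.

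The other probes of Nfic were less distinct. Probe 1 (chr10:80859057-80859116) had 10.62, 10.80 and 10.75 in A+/G+ and 11.05, 10.88 and 11.58 in A-/G+, where replicate 3 stood above the rest (difference -0.45, adjusted p = 0.278 from limma). Probe 2 (chr10:80859363-80859422) had 7.35, 7.72 and 7.75 in A+/G+ and 7.54, 8.10 and 8.29 in A-/G+. It was the probe of the family in which the fractions overlapped, since replicate 1 of A-/G+ lay below 2 of the A+/G+ arrays (difference -0.37, adjusted p = 0.455 from limma).

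Nfix, which is known for the switch from embryonic to fetal muscle genes and for keeping neural stem cells quiescent, had both probes higher in A-/G+ without overlap. Probe 1 (chr8:87228759-87228818) had 10.18, 10.37 and 10.42 in A+/G+ and lay between 10.84 and 11.06 in A-/G+, with both ranges narrower than the gap between them. The difference was -0.65 (standard error 0.10, adjusted p = 0.0261 from limma), with medians 1.55-fold apart. Probe 2, the brightest (sequence above), had 12.08, 12.28 and 12.41 in A+/G+ and 12.56, 12.60 and 12.91 in A-/G+. The gap between the fractions was small against their spread, and the difference of -0.43 was not past the limit (standard error 0.14, adjusted p = 0.144 from limma).

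**Figure D2:**
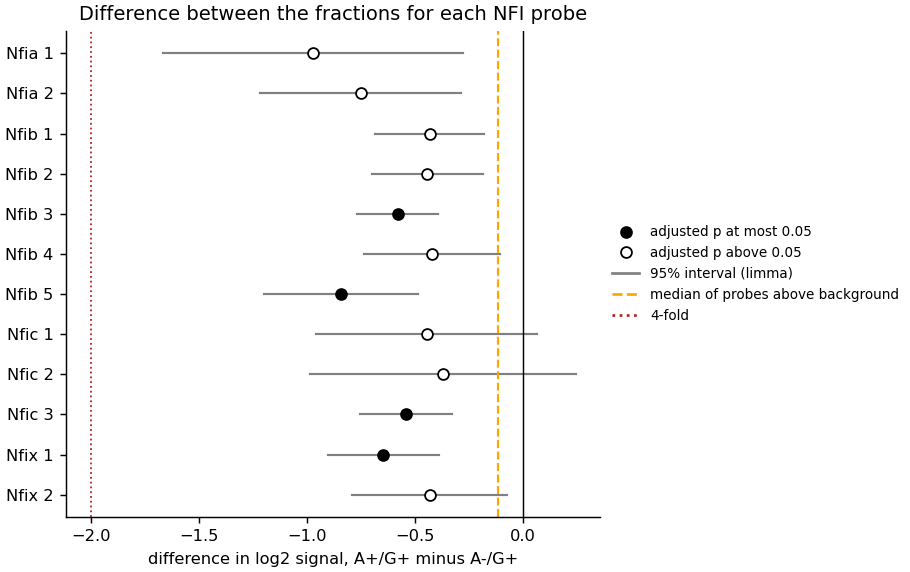
Difference in log2 signal, A+/G+ minus A-/G+ (horizontal axis), for each NFI probe (vertical axis), with its 95% interval from limma; filled points had an adjusted p of at most 0.05, the dashed line marks the median of the probes well above background on all arrays (-0.12) and the dotted line a 4-fold difference. All 12 points lie below 0, 4 are filled, and no interval reaches the 4-fold line.

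Against the rest of the array the shift of the family was moderate. The median difference of the 12 probes was -0.49, compared with -0.04 over all probes and -0.12 over the probes well above background on all arrays, of which 60.5% also had the higher mean in A-/G+. Of these expressed probes, 24.2% had a difference below the NFI median. The fractions did not overlap, with A-/G+ higher, for 11 of the 12 NFI probes, against 24.3% of all probes and 32.8% of those well above background on all arrays. The 12 probes read 4 genes only and are not independent of each other. For a single probe, the smallest two-sided p of an exact permutation test with 3 arrays per fraction is 0.1. Counted by the brightest probe of each gene, 1 of 4 members was past the adjusted p limit, against 12.6% of all genes in either direction.

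The number of NFI probes past the limit changed with single arrays. Leaving out replicate 1, 2 or 3 of A+/G+ left 0 NFI probes past it, and leaving out replicate 1, 2 or 3 of A-/G+ left 2, 2 and 5, while all 12 means stayed higher in A-/G+ in each case. The share of all probes past the limit with the higher mean in A-/G+ moved too, to 1.06%, 0.808% and 0.735% without an A+/G+ array and to 3.11%, 2.57% and 8.3% without an A-/G+ array. Without the 2 dimmest arrays, replicates 1 and 2 of A-/G+, 3 NFI probes were past the limit, as were 5.22% of all probes with the higher mean in A-/G+. That fit leaves 1 array of A-/G+, which is assumed to vary like those of A+/G+. The brightest A-/G+ array, replicate 3, had an intensity close to or above that of the A+/G+ arrays already before normalization for each member's brightest probe, leaving aside the outlier spot of Nfic. For Nfix probe 2 it had 10680, against 6958, 8488 and 8764 in A+/G+ and 1704 and 3703 on the other A-/G+ arrays. For Nfib probe 4 it had 23180, against 18880 to 21330 in A+/G+. For Nfia probe 2 it had 691, slightly below the 700 to 743 in A+/G+.

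**Figure D3:**
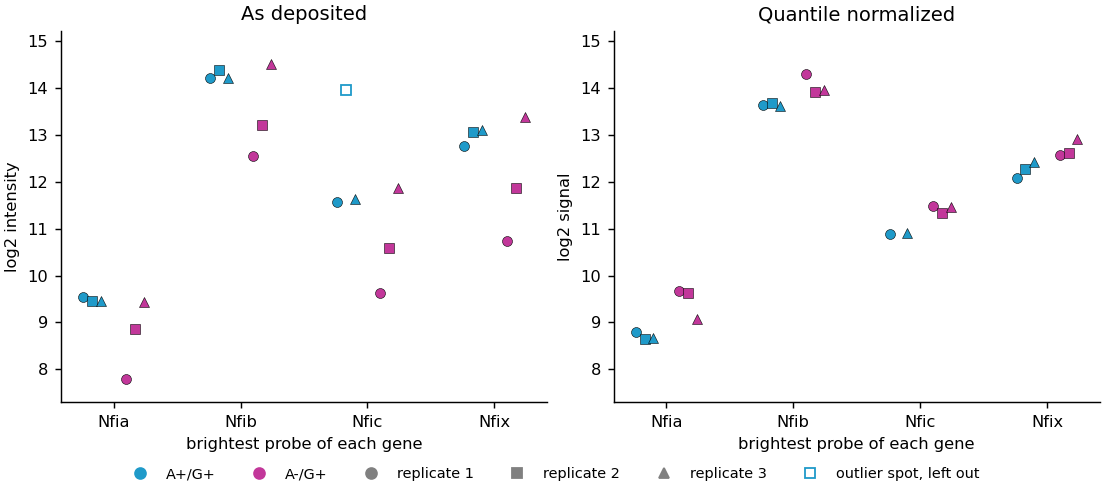
Log2 of the deposited intensity (left) and quantile-normalized log2 signal (right) on the vertical axis for the brightest probe of each NFI gene on the 6 arrays; colors give the fraction, symbols the replicate, and the open square the outlier spot that was left out. Replicates 1 and 2 of A-/G+ lie below the A+/G+ arrays on the left and above them on the right.

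Whether the members differ from each other in their change could not be settled with these arrays, since no exact test of 3 arrays against 3 can fall below 0.1. For the 6 pairs of members, the within-array difference of their brightest probes overlapped between the fractions each time, and the exact permutation test (two-sided) gave p from 0.2 to 1, or 0.72 to 1 after Benjamini-Hochberg adjustment over the 6 pairs. The pair that moved most was Nfia and Nfib, whose distance changed by -0.33 on the log2 scale. Within genes, 0 of the 8 other probes differed from the brightest probe of their gene in their change between fractions, at an adjusted p of at most 0.05 by limma, against 2.69% of 9058 such probes on the array, and 0 did so at an unadjusted p under 0.05. The farthest was Nfib probe 5, with -0.42 (standard error 0.21, adjusted p = 0.328). Across the arrays the brightest probes correlated with each other at Pearson's r between 0.51, for Nfia and Nfix, and 0.90, for Nfib and Nfic, over 6 arrays or 5 where Nfic took part. These values are a description of arrays that fall into 2 fractions.

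The genes most like each member were found by Pearson's r with its brightest probe, among the 11333 genes (11334 for Nfic) well above background on all arrays. For Nfia these were Nedd4l, which encodes a ubiquitin ligase, Arrdc1 and Pnma3, at r of 0.998 or more. For Nfib they were Dennd6a, Banp and Rilp (r at least 0.995), and for Nfix Angptl6, Chmp2a and the splicing factor gene Sf3b2 (r at least 0.993). For Nfic, over 5 arrays, they were Rnf123, Lrrc8b and Zfp259 (r at least 0.999). No NFI gene was among the 3 genes most like another. With 6 arrays and so many genes, values of this size say only which profiles are alike.

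Factors that act with NFI in gliogenesis did not move in one direction. Of 9 such genes on the array, 1 was higher in A+/G+, 2 were higher in A-/G+ and 6 were not past the limit, and the median difference was -0.44 against -0.03 over all genes. Of all genes, 7.48% were past the limit with the higher signal in A+/G+ and 5.12% with the higher signal in A-/G+. These shares count all 24082 genes, of which 8139 were well above background on no array. The shares among expressed genes alone were not computed. Leaving out 1 array gave 0 to 3 of the 9 higher in A+/G+ and 0 to 2 higher in A-/G+. Stat3, which transmits cytokine signals to astrocyte genes, was higher in A+/G+ (difference 0.71, adjusted p = 0.0300 from limma). Notch1, a receptor upstream of Nfia in progenitors, was higher in A-/G+ (difference -1.41, adjusted p = 0.0332), as was the neural POU factor Pou3f2 (-0.85, adjusted p = 0.0129). Sox9, the partner of Nfia, had 9.59 ± 0.27 (SD, n = 3) among the A+/G+ samples, compared with 9.94 ± 0.53 (SD, n = 3) for A-/G+ (adjusted p = 0.554 from limma). Zbtb20 (-0.49), Dnmt1 (-0.44), Rbpj (0.37) and Atf3 (0.91) were not past the limit, and Runx2 was well above background on none of the 6 arrays.

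Among astroglial genes reported as NFI targets, those that passed the test were higher in A+/G+, although Slc1a3 passed in the opposite direction under other settings. Of 8 genes, 3 were higher in A+/G+, none was higher in A-/G+ and 5 were not past the limit, with a median difference of 0.46. Beside this, 7.48% of all genes were past the limit with the higher signal in A+/G+ and 5.12% in A-/G+. Gfap, the intermediate filament of astrocytes, had 10.78 ± 0.12 (SD, n = 3) among the A+/G+ samples and 7.75 ± 0.75 (SD, n = 3) among those of A-/G+, a difference of 3.03 (standard error 0.40, adjusted p = 0.0182 from limma) that also met the 4-fold limit. S100b, a calcium-binding protein of glia, differed by 1.33 (adjusted p = 0.0352) and Mmd2 by 1.18 (adjusted p = 0.0231). The water channel gene Aqp4 had 0.86, but its A-/G+ arrays spread widely (SD 0.96, adjusted p = 0.411). Fabp7 (0.06), Zcchc24 (0.05) and Apcdd1 (-0.50) were not past the limit. Slc1a3, the gene of GLAST, on which only the A-/G+ cells were selected, had -1.19 (adjusted p = 0.0733). It was past the limit with the higher signal in A-/G+ after a shift by the 75th percentile (-1.48, adjusted p = 0.0465 from limma) and after normexp background correction (-1.19, adjusted p = 0.0263). With the shift 1 gene of the list was past the limit in each direction. With normexp 3 were higher in A+/G+ and 1 was higher in A-/G+, and without replicate 3 of A-/G+ 2 were higher in A+/G+ and 1 was higher in A-/G+. Without any 1 of the A+/G+ arrays, or without replicate 1 of A-/G+, limma placed 0 of these 8 genes past the limit.

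Among genes that NFI is reported to repress in progenitors, Ezh2, the methyltransferase of Polycomb repressive complex 2, was higher in A-/G+ (difference -0.73, standard error 0.07, adjusted p = 0.00820 from limma). Sox9 is given above, and Hes1 was well above background on none of the arrays.

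Genes of granule neurons reported as NFI targets gave 2 of 6 past the limit and higher in A+/G+. None was past it and higher in A-/G+, beside the 7.48% and 5.12% of all genes. By limma, 0 of the 6 stayed past the limit without any 1 of the A+/G+ arrays, and 2 or 3 did without 1 of the A-/G+ arrays. Wnt7a, a ligand known to remodel the mossy fiber inputs of granule neurons, had 9.18 ± 0.10 (SD, n = 3) among the A+/G+ samples and 6.79 ± 0.59 (SD, n = 3) among those of A-/G+, a difference of 2.39 (adjusted p = 0.0180 from limma) that also met the 4-fold limit. Efnb1, an ephrin of cell contact, differed by 1.15 (adjusted p = 0.0132). The cadherin gene Cdh2 differed by 0.28 with an adjusted p of 0.0501, just short of the limit, and Grin2c by 0.55 (adjusted p = 0.609). Gabra6, a receptor subunit of mature granule neurons, was well above background on 0 of 6 arrays, and Cntn2 on 1 array of each fraction.

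Factors that time NFI binding in granule neurons were past the limit and higher in A-/G+ in 2 of 3 cases, beside 5.12% of all genes. With 1 array left out, 0 to 3 of them were. Etv1 differed by -0.51 (adjusted p = 0.0347 from limma) and Nfatc4 by -0.76 (adjusted p = 0.0113), whereas the repressor gene Rest had -0.37 (adjusted p = 0.414). Of the 11 pathway genes past the limit, Gfap, Notch1, Wnt7a and Efnb1 stayed past it with a shift by the 75th percentile in place of quantile normalization, whereas Stat3, Pou3f2, S100b, Mmd2, Ezh2, Etv1 and Nfatc4 did not (adjusted p from 0.0501 to 0.0753 by limma). Without normalization, the differences of Notch1, Pou3f2, Ezh2, Etv1 and Nfatc4 turned positive, as those of the NFI genes did. Leaving out 1 array of A+/G+ left at most 1 gene past the limit in each of the 5 pathway lists.

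**Figure D4:**
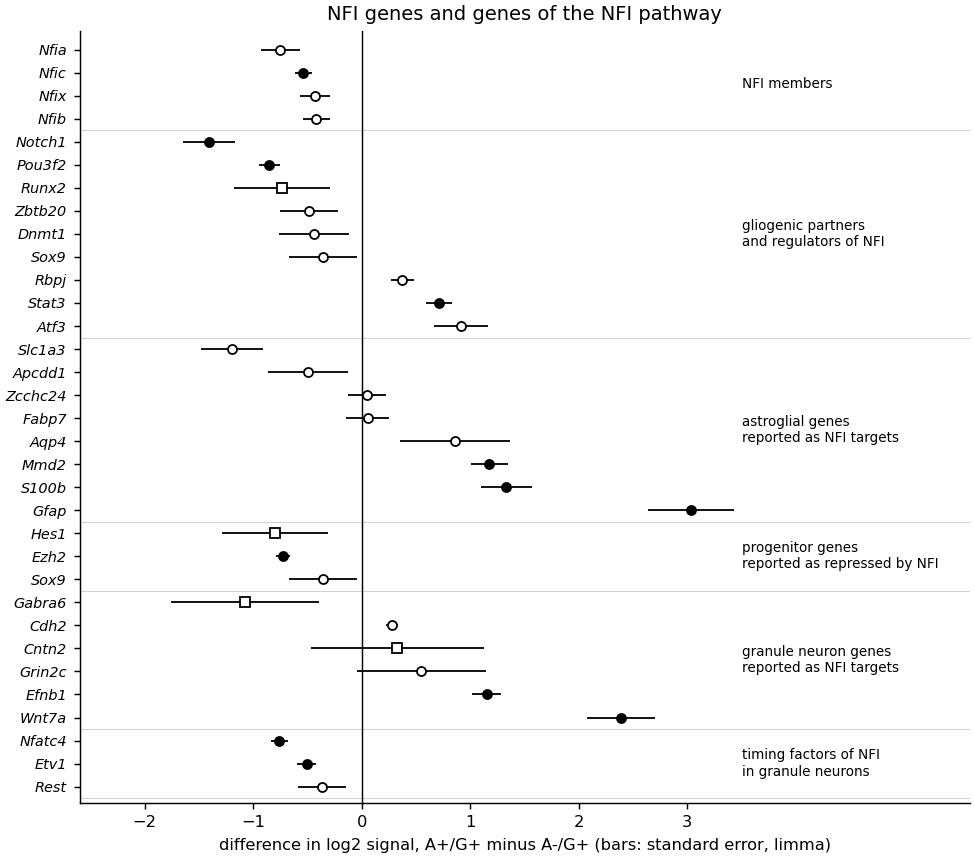
Difference in log2 signal, A+/G+ minus A-/G+ (horizontal axis), at the brightest probe of the NFI genes and of the genes in each pathway list (vertical axis); bars are standard errors from limma, filled symbols had an adjusted p of at most 0.05, and squares mark genes that were not well above background on all 6 arrays. The 4 NFI genes lie between -0.75 and -0.42, while the filled astroglial targets lie at 1.18 to 3.03.

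The Zic and SOX families, which also hold transcription factors of cerebellar precursors, are given for comparison. Of 5 Zic genes, 3 were higher in A-/G+ and none in A+/G+ (median difference -1.07), and of 11 SOX genes 1 was higher in A+/G+ and none in A-/G+, with a median of -0.32. Leaving out 1 array moved the counts higher in A-/G+ to 1 to 5 for Zic and 0 to 3 for SOX genes. The NFI genes, with a median of -0.49 by brightest probe, lay between these families, and the difference between families was not tested.

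Markers of several cell types also differed between the fractions, in both directions. For comparison, 7.48% of all genes were past the limit and higher in A+/G+, and 5.12% were past it and higher in A-/G+. Genes well above background on no array, 8139 of 24082, count in these shares. Among probes, the share higher in A-/G+ was 4.64% over all and 11.9% over those well above background on all arrays. In the counts of markers here, higher means past the limit. Of 6 markers of Bergmann glia, 5 were higher in A-/G+ (median difference -2.21), and the summed signal of all 6 was 21011 to 24337 in A+/G+ and 23548 to 33064 in A-/G+. The remaining marker had the highest mean signal of the list in both fractions, so it weighs heavily in these sums. Its difference was 0.68, in the opposite direction (adjusted p = 0.173 from limma). Purkinje cell markers were higher in A+/G+ in 6 of 8 cases (summed signal 5543 to 14476 against 1722 to 2280), as were 3 of 8 oligodendrocyte lineage markers (15084 to 17898 against 3432 to 5433). Markers of ependymal cells and motile cilia were higher in A+/G+ in 5 of 7 cases (4102 to 6670 against 426 to 1109), of meningeal fibroblasts in 3 of 6 (71803 to 87473 against 12306 to 36218) and of mural cells in 2 of 5 (2334 to 2563 against 363 to 932). Of 10 general astroglial markers, all well above background on all arrays, 3 had the higher signal in A+/G+ and 1 in A-/G+. Of 10 granule neuron lineage markers 1 was higher in A-/G+ and 9 were not past the limit, and none of the 6 microglial markers passed. The summed signal of the 4 NFI genes at their brightest probes was 18434 to 20171 in A+/G+ and 24909 to 29869 in A-/G+. Over the fits without 1 array, the count higher in A-/G+ was 3 to 5 for Bergmann glia, and the count higher in A+/G+ was 2 to 6 for Purkinje cells, 2 to 6 for the oligodendrocyte lineage, 2 to 5 for ependymal cells, 1 to 5 for meningeal fibroblasts, 1 to 4 for mural cells, 0 to 3 for general astroglia, 0 to 2 for the granule neuron lineage and 0 to 1 for microglia. The part of these cell types in the NFI differences was not tested.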

How the data were processed

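Gene expression was measured on 6 Agilent 1-color arrays, 3 per fraction, with 50 ng of total RNA at most amplified and labeled with Cy3 (the labels call the amplified material polyA RNA). The authors deposited the scanner output, made by Feature Extraction 10.7.3.1, with the background-corrected intensity of each of 62976 spots, and a table of quantile-normalized log2 values, which was used as an alternative. Here intensities were log2 transformed without control spots and without the 118 to 250 spots per array that the software marked as outliers, arrays were quantile normalized and spots of 1 probe were averaged. Differences between fractions were tested with limma 3.58.1 (R 4.3.3) on all 55681 probes with Benjamini-Hochberg adjustment, at an adjusted p of at most 0.05, with and without medians at least 4-fold apart. The study's Student's test was an alternative. Each gene is represented by its brightest probe over the 6 arrays. Gene names and mm9 positions are those of the array files. Named are all NFI probes, members of the pathway lists, the 3 genes most like each member and the genes of the sorted antigens. Members and lists were chosen with earlier results of these data known, and lists get counts and medians but no test. The fit was tested on simulated data. The number of arrays limits the precision.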

Additional observations from a re-analysis of the deposited data

How the results depend on the processing

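Counts of NFI probes past the adjusted p limit of 0.05, out of 12, are set against 4 as reported, and those of NFI genes at their brightest probe, out of 4, against 1. A shift by the 75th percentile gave 0 and 0, normexp background correction with an offset of 50 gave 9 and 4, the methods' t-test gave 1 and 0, and the replicate number as a block gave 0 and 0. Of all probes, 4.64% were past the limit and higher in A-/G+ as reported, 4.77% with the shift, 6.41% with normexp and 2.15% with the t-test. The block left 0 of all 55681 probes past the limit. Samples with the same replicate number deviated together at correlations of 0.20, 0.11 and -0.11, and replicates 2 and 3 of A+/G+ correlated best with another number, so the numbers were not taken to pair the samples. Leaving out dim probes gave 2 genes, keeping outlier spots gave 0 genes, and the mean of a gene's probes measured on all arrays gave 3 (Nfia, Nfib and Nfix). With dim probes left out, 13.2% of the 25178 probes tested were past the limit and higher in A-/G+. With outlier spots kept, 4.67% of all probes were. For the mean of a gene's probes, the share over all genes was not computed. Leaving out 1 array gave 0 to 5 probes and 0 to 1 genes. The authors' table, limma with trend and robust variance and, for probes, kept outlier spots or left-out dim probes stayed within 1.5 times the reported counts. With 2 alternatives chosen after the data were seen, 0 probes and 0 genes were past the limit without normalization between arrays, and 0 genes without replicates 1 and 2 of A-/G+. Without normalization 0 of 12 means were higher in A-/G+, and the brightest probes turned to 0.78 for Nfia, 0.85 for Nfib, 0.91 for Nfic and 0.98 for Nfix. With outlier spots kept, Nfic turned to 0.23. In the other alternatives all 12 means stayed higher in A-/G+, and no NFI probe was past the 4-fold limit in any. The test between probes of 1 gene was rerun with the shift and with each array left out and gave 0 each time, and the test between members, which cannot pass the limit with these arrays, was rerun with the shift alone. Apart from the construction of the alternatives, the cause of the changes was not tested. The fewer probes well above background on the A-/G+ arrays limit what can be seen of dim genes there.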
